A study of Homo sapiens with 6 samples.

Results

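LINC genes are long intergenic noncoding RNA genes that carry only a running number as their name, because no function or neighbour had named them when they were catalogued. They were followed here in HEK-293T cells, a human embryonic kidney line that carries the SV40 large T antigen, after exposure to nitidine chloride, a benzophenanthridine alkaloid. The members were the rows of the deposited gene table whose name is LINC followed by digits and whose mean over the 6 libraries was at least 10 counts. Of 2118 LINC rows, 1485 had no count in any library, 498 had counts with a mean below 10, and 135 were members, among 15953 genes tested in all. Both groups were labelled as wild-type (WT) HEK-293T cells kept for 12 h, with DMSO, the solvent, in the medium of one group and 10 µM nitidine chloride in the other. Each group had 3 libraries, made after isolation of mRNA. Nothing in the labels says that the replicates came from separate cultures, so the p-values measure the spread between these libraries, which may be technical.

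Long noncoding RNAs are transcribed by RNA polymerase II, capped and mostly spliced, but they lack a long conserved reading frame. Most are kept at low levels, many stay in the nucleus, and the unstable ones are removed by the nuclear exosome. Some start at a promoter that also fires a protein-coding gene in the other direction, some host microRNAs, and a few carry short reading frames that are translated. The name describes the catalogue rather than a single kind of gene. Of the 135 members, 133 were present in GENCODE release 29, where 94 were typed as lincRNA, 15 as processed transcript and 10 as antisense. LINC02693 was typed there as protein-coding. By now 15 members have another symbol, such as CHASERR for LINC01578, SLC12A2-DT for LINC01184 and NIHCOLE for LINC02163.

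The libraries held 12688093 to 16357992 counts. The summed level of the genes fixed as markers of the HEK-293T line, among them LIN28B, NEFL, NEFM, PAX2 and VIM, was 1158 to 1455 CPM with DMSO and 1184 to 1472 CPM with nitidine chloride (CPM relates counts to the TMM-scaled size of the library). VIM made up most of it, with means of 764 CPM with DMSO and 975 CPM with nitidine chloride. The sum hides single markers that moved apart. Mean LIN28B fell from 185 to 81.8 CPM and NEFM from 172 to 119 CPM, while NEFL rose from 152 to 196 CPM. For these genes the groups of libraries did not overlap, while those of PAX2 and VIM did. A list of 12 markers of blood, endothelium, fibroblasts and liver summed to 31.9 to 36.5 CPM with DMSO and 53.9 to 61.4 CPM with nitidine chloride. Most of that sum was COL1A1, a collagen chain, which rose from a mean of 32.6 to 52.7 CPM without overlap of the groups. CD3E and HBB were at 0 in all libraries and PTPRC had at most 1 count. CD14 had 5, 2 and 3 counts with DMSO and 6, 8 and 14 with nitidine chloride, and VWF 0, 1 and 1 against 5, 10 and 4. The counts of DCN (3, 5 and 13 against 14, 16 and 5) and ALB (0, 1 and 5 against 5, 0 and 3) overlapped. The part of these markers in the results was not tested.

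After nitidine chloride, as many LINC RNAs were higher as were lower by the main test, a balance that moved with scaling and threshold. Scaling by library totals alone gave 33 higher and 25 lower, and a test against a 1.5-fold change gave 4 and 16. Levels are relative to the scaled size of each library. In RNA from whole cultures, fewer cells with a transcript and less of it per cell cannot be told apart. By edgeR's quasi-likelihood test at an adjusted p of 0.05, 28 members were higher, 28 were lower and 79 did not pass. The 56 changed members were 41.5% of the 135, against 51.7% of all genes tested. Higher members made up 20.7%, against 24.7% of all genes, and lower members 20.7%, against 27% of all genes. The median log2 fold change was -0.06 over the members and 0.01 over all genes tested. Past the test and at least 2-fold, 9 of the 135 members were higher and 21 lower, while 3.87% of all genes were higher and 11.7% lower by that rule. By this rule the shares of members lay above those of all genes. That difference was not tested, and the fold changes of members were less precise, as given below. In 18 members the mean was under 10 counts in one group, so that they reached the threshold through the group where they were higher and their group means had to differ. Of these, 5 were called higher and 5 lower, and 23 members in each direction had a mean of at least 10 counts in both groups. The 3 DMSO libraries and the 3 nitidine chloride libraries did not overlap for 71 members, 36 of them higher and 35 lower, which is 52.6% against 60.7% of all genes.

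The members were low in abundance, and the share that passed the test followed the counts behind them. Their median mean count was 32.8, against 354.7 for all genes tested, and their median FPKM, a level per gene length, was 0.867 against 3.29. For a log2 fold change the standard error (SE) had a median of 0.24 in the members and 0.12 over all genes. Among the 61 members with a mean of 10 to 30 counts, 26.2% changed, against 25.2% of all genes in that range. The shares were 51.3% and 43.5% at 30 to 100 counts, over 39 members, and 55.6% for both at 100 to 300 counts, over 27 members. Of the 8 members with 300 counts or more, 62.5% changed, against 59.2% of all genes. In each of these ranges the share of members was equal to or above that of all genes, a difference that was not tested. Of the 135 members, 60 members reached an FPKM of 1, and 6 reached 5. At the edge of the count threshold, LINC02043 had a mean of exactly 10 counts and LINC00920 and LINC00667 10.2, while LINC01842, LINC02021 and LINC01140 stayed out with 9.83, 9.67 and 9.50.

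Genomic span, the distance from the start to the end of a gene with its introns, was set against the change of each member. Positions are those of the gene table, on GRCh38 as far as they match GENCODE release 29. The members spanned 0.436 to 381.7 kb, with a median of 10.0 kb against 27.3 kb for all genes. Of the 16 members of 100 kb or more, 9 were lower and 1 was higher, with a median log2 fold change of -1.02. All 2785 genes of that size had a median of -1.10, with 80.4% lower and 2.12% higher. In the 88 members under 20 kb, 21 were higher and 14 lower, with a median of -0.03, while all 6758 genes of that size had a median of 0.22, with 35.8% higher and 8.80% lower. The rank correlation of span with the log2 fold change was -0.04 over the 135 members and -0.47 over all genes, and from 20 kb up it was -0.32 over 47 members and -0.67 over 9195 genes. These coefficients run across genes that share the same 6 libraries and describe them only.

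**Figure D1:**
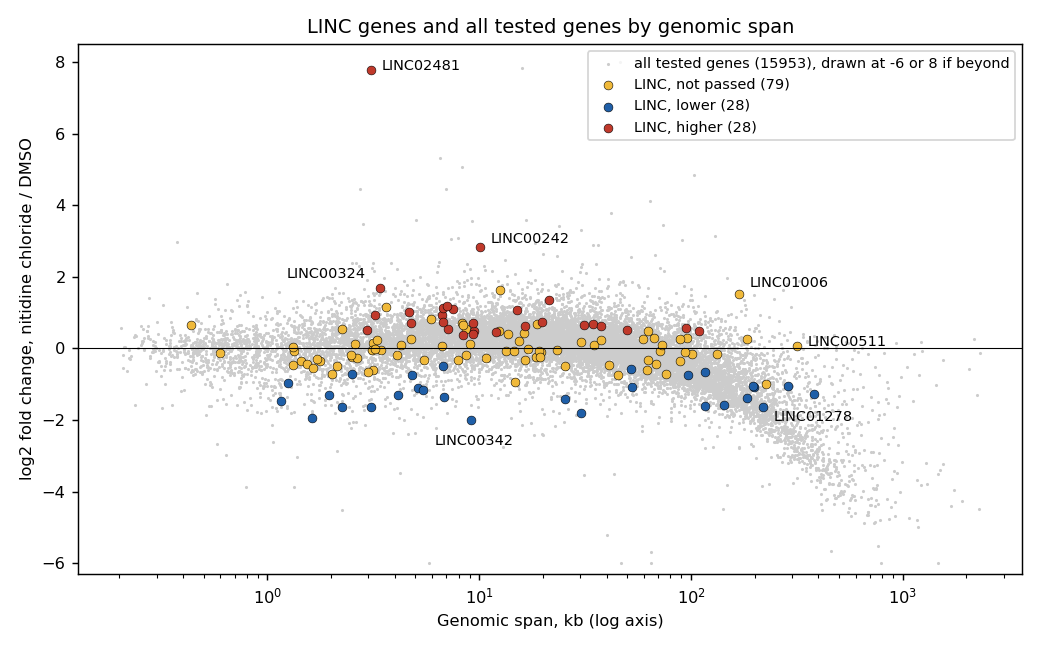
Genomic span (kb, log axis) against the log2 fold change of nitidine chloride over DMSO; grey points are all genes tested and coloured points the LINC members, by whether they were higher, lower or did not pass edgeR's test. From 100 kb up, 9 of the 16 members lie among the lower ones, while the members under 20 kb spread to both sides of 0; the fitted value of LINC02481 at the top depends on the prior count, since it had 0 counts with DMSO, and genes beyond the axis are drawn at its edge.

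By finer classes of span, the median of the members had the sign of the median of all genes in each class but the shortest. Under 5 kb, 6 of 43 members were higher and 9 lower, against 23.4% and 12.3% of all genes, with a median log2 fold change of -0.18 against 0.09 for all genes. The 24 members of 5 to 10 kb held 10 higher and 5 lower ones, against 44% and 6.69% of all genes, with a median of 0.45 against 0.31. At 10 to 20 kb, 5 of 21 members were higher and 0 lower, where all genes had 44.2% higher and 6.30% lower. At an unadjusted p under 0.05, and by DESeq2 and limma-voom, the number lower there was also 0. The 14 members of 20 to 50 kb held 5 higher and 2 lower ones, against 30.8% and 12.2% of all genes. At 50 to 100 kb, 1 of 17 was higher and 3 were lower, against 10.5% and 39.8% of all genes, with a median of -0.09 that became 0.02 when libraries were scaled by their totals alone. The 11 members of 100 to 200 kb held 1 higher and 6 lower, or 9.09% and 54.5%, against 2.65% and 75% of all genes, with a median of -0.67 against -0.84. Of the 5 members of 200 kb or more, 3 were lower and 0 higher, against 89.3% and 1.24% of all genes, and their median was -1.06 against -2.002 for all genes of that size. The number higher was 0 there by unadjusted p, DESeq2 and limma-voom too. Without members that overlap another counted gene, the medians at 10 to 20 and 20 to 50 kb turned from 0.21 to -0.07 and from 0.14 to -0.04, and that at 50 to 100 kb turned to 0.27.

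**Figure D2:**
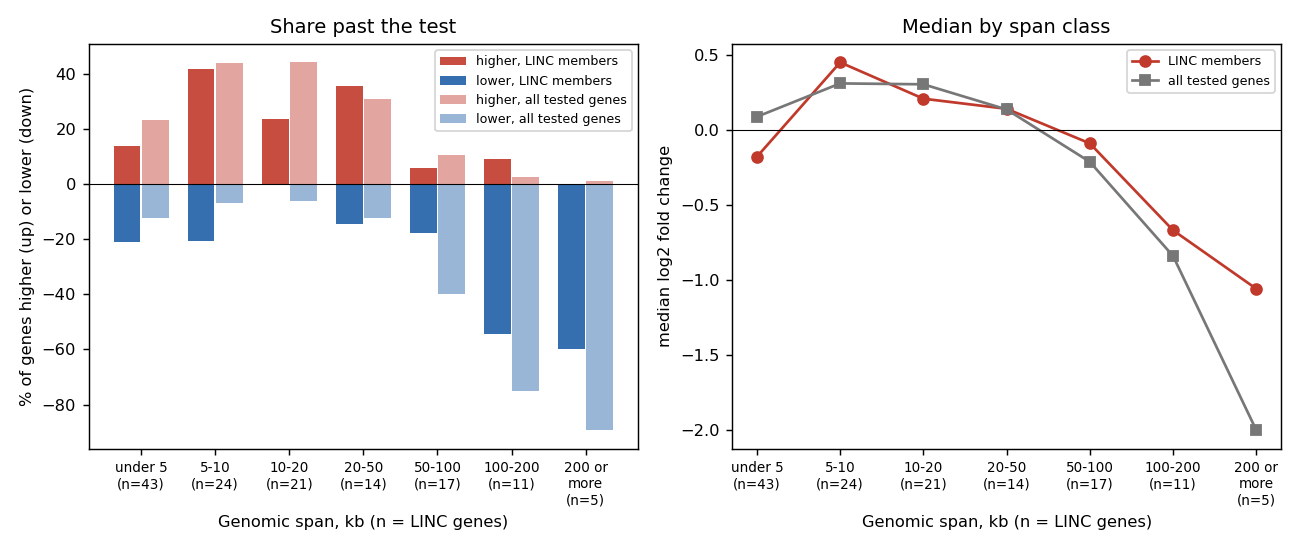
Left, percent of genes higher (upward bars) and lower (downward bars, drawn below 0) by class of genomic span in kb, for the LINC members and for all genes tested; right, the median log2 fold change in the same classes. Both lines fall at each step from the class of 5 to 10 kb on, and at 200 kb or more the members reach -1.06 and all genes -2.002.

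The most strongly lowered members of 100 kb or more were lower in every treated library. LINC01278, which spans 217.8 kb of the X chromosome (63343227 to 63561071, minus strand), had 18.2, 23.9 and 24.2 CPM with DMSO and 7.06, 7.45 and 6.90 CPM with nitidine chloride. All 3 treated libraries lay below all 3 DMSO libraries, a log2 fold change of -1.63 ± 0.14 (SE, adjusted p = 4.64e-05, edgeR). Its table span holds SPIN4 on the same strand. LINC01184, 142.7 kb long and divergent from the chloride transporter gene SLC12A2, fell from 16.1, 19.4 and 16.7 CPM to 6.22, 5.37 and 6.04 CPM. Its groups were as clearly apart (-1.57 ± 0.12, adjusted p = 3.33e-05). LINC00630, 116.2 kb on the X chromosome, went from 9.94, 16.3 and 10.7 CPM to 4.33, 3.79 and 3.95 CPM (-1.61 ± 0.21, adjusted p = 4.85e-04). Its second DMSO library was the highest, and the treated libraries were close together. Z68871.1 and MTND2P2 overlap LINC00630 on the same strand.

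Other lowered members of this length were LINC00693, LINC01515, LINC01411, LINC00894, LINC01572 and LINC00476, with log2 fold changes from -1.38 to -0.67. LINC00894 was the only lowered member whose groups overlapped, since its highest treated library (4.53 CPM) lay above its lowest DMSO library (4.48 CPM). It is divergent from EOLA2 and overlaps it on the opposite strand. LINC01572, the longest member at 381.7 kb, had few counts behind it, with a mean of 1.37 ± 0.42 CPM with DMSO and 0.562 ± 0.25 CPM with nitidine chloride (SD, n = 3), and its edgeR adjusted p was 0.0312. It reached the threshold through the DMSO libraries.

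Length did not go with a lower level in every member. LINC00511, 317.4 kb on chromosome 17, a transcript studied as a cancer-associated RNA, had 1.89, 1.92 and 1.46 CPM with DMSO and 1.19, 2.53 and 1.73 CPM with nitidine chloride. These groups overlapped throughout, at a log2 fold change of 0.06 ± 0.30 (adjusted p = 0.882, edgeR), which became -0.26 without the second nitidine chloride library. LINC00461, 183.5 kb, the host of a miR-9 gene, had 1.73, 1.28 and 1.59 CPM against 2.24, 1.26 and 2.01 CPM, again with overlap (0.26 ± 0.27, adjusted p = 0.465). LINC02615, 226.6 kb, was lower in all 3 treated libraries without passing the test (-0.98 ± 0.38, adjusted p = 0.0603). Without the first DMSO library its adjusted p was 0.0440, and over the libraries left out in turn it went up to 0.221. LINC00662, 109.4 kb on chromosome 19, was the 1 long member that rose, from 7.64, 6.76 and 7.11 CPM to 9.09, 11.0 and 9.85 CPM (0.48 ± 0.12, adjusted p = 0.0133). It overlaps AC006504.1 and AC006504.5, on one strand each, so its reads may be shared with theirs.

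Several short members fell as steeply as the long ones. LINC00641, a 2-exon gene of 6.82 kb on chromosome 14 (21200079 to 21206900, minus strand) known as a sponge for microRNAs in reports on tumours, had 561, 606 and 603 counts with DMSO and 241, 241 and 240 with nitidine chloride. As levels these were 42.5 ± 3.95 and 16.4 ± 1.07 CPM (SD, n = 3), with no overlap and a log2 fold change of -1.37 ± 0.10 (adjusted p = 2.50e-05, edgeR). HNRNPC, the next gene upstream on the same strand and 60.4 kb long, encodes an RNA-binding protein of the nucleus and fell by 0.76 on the log2 scale (SE 0.10).

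LINC00342, 9.10 kb on chromosome 2 (95807118 to 95816215, minus strand), had the lowest log2 fold change of all members, -1.99 ± 0.40 (adjusted p = 0.00392, edgeR). Its counts were 63, 210 and 217 with DMSO and 36, 39 and 50 with nitidine chloride, so the first DMSO library lay far below the other two and still above the treated ones. Its longest transcript matched AC092683.1 at 96.7% identity over 2185 of 2351 bases, and reads may be split between such copies. AC092683.1 itself was at -0.79 ± 0.31 (adjusted p = 0.0692) and the related AC159540.2 at -0.86 ± 0.20 (adjusted p = 0.00837). ANKRD36C, which lies upstream of LINC00342 on the same strand and spans 154.9 kb, was at -1.84 ± 0.21 (adjusted p = 2.63e-04).

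LINC00235 and LINC01521 are single-exon genes that start beside a protein-coding gene. LINC00235, 2.25 kb on chromosome 16 (525155 to 527407, minus strand), had 3.70, 4.41 and 6.03 CPM with DMSO and 1.47, 1.58 and 1.51 CPM with nitidine chloride. The treated libraries were nearly equal and all below the DMSO ones (-1.64 ± 0.23, adjusted p = 6.48e-04, edgeR). LINC01521, 1.94 kb on chromosome 22 (31346777 to 31348719, plus strand), went from 5.51, 4.76 and 5.39 CPM to 2.17, 2.08 and 2.09 CPM (-1.30 ± 0.15, adjusted p = 2.37e-04). LINC02846, 1.62 kb, and LINC00173, 3.10 kb, were at -1.93 ± 0.30 and -1.64 ± 0.34. LINC02586, 1.15 kb, was at -1.46 ± 0.31 and LINC02593, 4.15 kb, at -1.29 ± 0.12. LINC02846, LINC00173 and LINC02586 rest on few counts and reached the threshold of 10 through the DMSO libraries: 16, 15 and 21 against 5, 5 and 4 for LINC02846, 24, 24 and 30 against 4, 12 and 10 for LINC00173, and 16, 22 and 34 against 8, 12 and 7 for LINC02586. LINC00648, 30.1 kb, had 34, 63 and 53 counts with DMSO and 15 in each treated library (-1.79 ± 0.24).

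The lowered members also included a gene known to encode a micropeptide. LINC00467, 52.5 kb on chromosome 1, encodes ASAP, a short mitochondrial protein that binds ATP synthase. Its level was 24.3, 27.4 and 22.3 CPM with DMSO and 11.3, 11.9 and 11.8 CPM with nitidine chloride, with no overlap (-1.08 ± 0.11, adjusted p = 1.07e-04, edgeR). The pseudogene SNX25P1 lies within it on the same strand. Of the 7 micropeptide genes listed, 2 were found in the table by the listed name and LINC00467 was the 1 tested. Among members chosen for naming after their values were seen, LINC02163, now NIHCOLE and known from liver cancer, was lower at -1.40 ± 0.42 (adjusted p = 0.0247), and reached the threshold through the DMSO libraries. LINC00634, now SMIM45, a small membrane protein gene, was higher at 1.13 ± 0.36 (adjusted p = 0.0306). LINC00665, reported to encode a short peptide that binds CIP2A, was at 0.69 ± 0.33 without passing (adjusted p = 0.123). LINC01578, now CHASERR, which restrains its neighbour CHD2 from the same strand, was at -0.03 ± 0.09. CHD2, a chromatin remodeller, had a log2 fold change of -0.59 ± 0.28 and did not pass (adjusted p = 0.112).

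Among the higher members with a mean of at least 30 counts, LINC00324 rose most. It is a 3.40 kb gene on chromosome 17 (8220642 to 8224043, minus strand) between CTC1, a telomere maintenance gene, and the mitotic kinase gene AURKB. LINC00324 had 18, 16 and 27 counts with DMSO and 57, 76 and 72 with nitidine chloride, or 1.44 ± 0.29 and 4.65 ± 0.61 CPM (SD, n = 3). The groups were far apart, at a log2 fold change of 1.68 ± 0.21 (adjusted p = 3.69e-04, edgeR). CTC1 rose less, at 0.54 ± 0.11 (adjusted p = 0.00452), and AURKB was at 0.01 ± 0.06.

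LINC00863, 15.1 kb on chromosome 10, was next, with 6.33, 7.61 and 6.60 CPM with DMSO and 12.6, 14.9 and 16.0 CPM with nitidine chloride (1.08 ± 0.14, adjusted p = 3.91e-04, edgeR). Its treated libraries all lay above its DMSO libraries, and part of it overlaps NUTM2D on the same strand. LINC01703 was at 0.93 ± 0.21, LINC00950 at 0.74 ± 0.16 and LINC01128, which overlaps LINC00115 on the opposite strand, at 0.67 ± 0.09. LINC00337, now ICMT-DT, and LINC01719 passed narrowly, at 0.93 ± 0.30 (adjusted p = 0.0327) and 0.70 ± 0.22 (adjusted p = 0.0320). Without the second nitidine chloride library their adjusted p-values were 0.0980 and 0.105. LINC00337 also missed the threshold without the second or the third DMSO library or the first nitidine chloride library (0.0751, 0.0896 and 0.0816), and LINC01719 without the first or the third DMSO library (0.0920 and 0.0804).

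**Figure D3:**
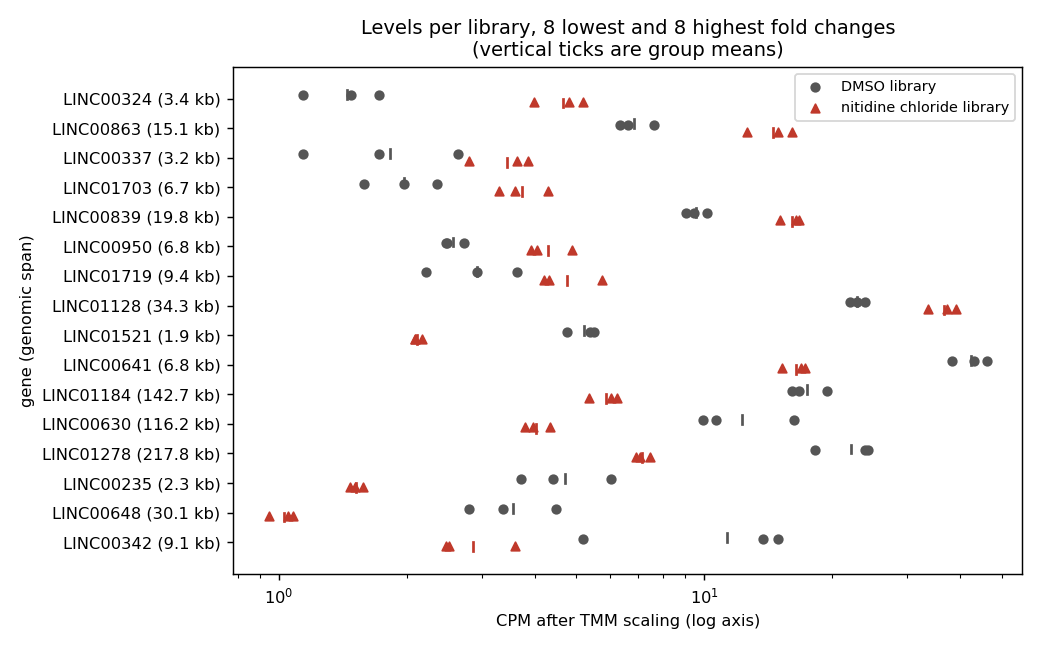
Level (CPM, log axis) in each library for the 8 highest and 8 lowest log2 fold changes among changed members with a mean of at least 30 counts; circles are DMSO libraries, triangles nitidine chloride libraries and vertical ticks group means. No groups overlap, LINC00641 forms tight groups around 42.5 and 16.4 CPM, and one DMSO library of LINC00342 lies well below the others.

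Of the 8 most abundant members per gene length, 5 rose and 3 did not pass the test. Of the 6702 genes with an FPKM at least as high as theirs, 30.9% were higher and 25.7% lower. LINC02693, listed as a LINC gene and typed as protein-coding in GENCODE release 29, had the highest FPKM, 12.5 on average. Its level was 98.9, 98.2 and 103 CPM with DMSO and 142, 144 and 144 CPM with nitidine chloride, with narrow spread in both groups (0.52 ± 0.05, adjusted p = 1.51e-04, edgeR). LINC02381, beside the HOXC cluster and overlapping the DNA repair gene SMUG1 on the opposite strand, was at 0.62 ± 0.11. LINC01234, 94.2 kb, rose from 35.7, 32.4 and 29.9 CPM to 45.2, 49.6 and 50.7 CPM (0.57 ± 0.09, adjusted p = 0.00150). LINC01547 was at 0.55 ± 0.12 and LINC00839 at 0.75 ± 0.10, both past the test. The 3 that did not pass were LINC00294 at 0.24 ± 0.09 (adjusted p = 0.0629), LINC00205 at -0.18 ± 0.11 and LINC01003 at -0.34 ± 0.16. LINC00294 passed when libraries were scaled by their totals alone (adjusted p = 0.0149) or the count filter was raised to 50 (0.0479), and had values up to 0.185 with 1 library left out. It overlaps TCP11L1 on its own strand and CSTF3 on the other. LINC01003 passed without the second nitidine chloride library (adjusted p = 0.0353), with values up to 0.335 when other libraries were left out.

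A pair of scarce members showed the largest folds and were singled out after their values were seen. LINC02481, a 3-exon gene of 3.07 kb on chromosome 4 (6687448 to 6690519, minus strand), had 0, 0 and 0 counts with DMSO and 26, 29 and 28 with nitidine chloride. It was at least 26.4-fold higher, taking 3 counts over the DMSO group as the limit that a count of 0 allows, which is 0.0713 CPM against 1.88 CPM pooled over the treated libraries (counting error only). It reached the threshold of 10 counts through the treated libraries alone and so had to differ, and its test (edgeR adjusted p = 1.93e-04) adds nothing to that. The neighbours within the locus were scarce and untested but had more counts in the treated libraries: S100P, a calcium-binding protein gene, had 1, 0 and 0 against 8, 8 and 4 counts. AC093323.2 had 0, 1 and 1 against 5, 2 and 3 counts, and AC093323.3 had 0, 0 and 1 against 6, 5 and 7. Farther out, LINC02482 was at -0.04 ± 0.40 and MRFAP1L1 at 0.26 ± 0.06.

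LINC00242, 10.0 kb on chromosome 6 (169788790 to 169798825, minus strand), had 2, 3 and 2 counts with DMSO and 13, 25 and 17 with nitidine chloride, a log2 fold change of 2.83 ± 0.42 (adjusted p = 8.77e-04, edgeR). It too reached the threshold through the treated libraries and so had to differ, and its test adds nothing to that. It overlaps LINC00574 on the opposite strand, which had 8, 3 and 4 against 4, 23 and 23 counts and did not pass (1.63 ± 0.70, adjusted p = 0.0872). Reads of the 2 genes cannot be told apart where strand was not used in counting.

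The 28 higher members as a whole ran from 0.38 to 7.76 in fitted log2 fold change with a median of 0.71, and the 28 lower ones from -0.49 to -1.99 with a median of -1.28. The value of 7.76 is that of LINC02481 and depends on the prior count. The median mean count was 52.8 for the higher, 47.0 for the lower and 25.3 for the 79 that did not pass. Those 79 ran from -0.98 to 1.63, and the groups of libraries overlapped in 63 of them.

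Start regions of 6 of these genes are shown. They are the risers LINC00324, LINC00242 and LINC00863, the short genes LINC00641 and LINC00235 that fell, and LINC01278 as a long gene that fell. LINC00242 reached the count threshold through the treated libraries and had to differ. They were chosen after the values were seen. Each is the RefSeq window of build GRCh38.p14 from 250 bases before to 50 after the annotated start, 5′ to 3′ on the strand of the gene. Capitals mark matches on either strand to any of the 7 motifs searched, so a CCAAT box on the other strand reads ATTGG. The windows are chr17:8223994-8224293 (minus strand) for LINC00324, chr6:169798776-169799075 (minus) for LINC00242, chr10:87342486-87342785 (plus) for LINC00863, chr14:21206851-21207150 (minus) for LINC00641, chr16:527358-527657 (minus) for LINC00235 and chrX:63561046-63561345 (minus) for LINC01278.
LINC00324: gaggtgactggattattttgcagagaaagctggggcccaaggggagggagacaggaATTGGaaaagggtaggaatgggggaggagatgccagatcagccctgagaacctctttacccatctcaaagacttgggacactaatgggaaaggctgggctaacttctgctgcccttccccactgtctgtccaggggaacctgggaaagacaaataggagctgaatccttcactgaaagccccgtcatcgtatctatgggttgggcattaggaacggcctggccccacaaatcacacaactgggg
LINC00242: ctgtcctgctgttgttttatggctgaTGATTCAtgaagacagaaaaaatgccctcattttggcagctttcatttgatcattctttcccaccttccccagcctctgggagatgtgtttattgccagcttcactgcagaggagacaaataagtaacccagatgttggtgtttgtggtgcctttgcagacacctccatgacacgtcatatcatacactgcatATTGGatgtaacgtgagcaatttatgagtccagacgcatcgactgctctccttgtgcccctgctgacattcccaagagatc
LINC00863: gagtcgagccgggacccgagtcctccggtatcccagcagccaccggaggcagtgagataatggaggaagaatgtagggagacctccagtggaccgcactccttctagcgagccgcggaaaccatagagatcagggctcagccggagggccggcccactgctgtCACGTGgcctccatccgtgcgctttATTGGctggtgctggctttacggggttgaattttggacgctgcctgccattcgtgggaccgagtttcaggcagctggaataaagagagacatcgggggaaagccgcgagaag
LINC00641: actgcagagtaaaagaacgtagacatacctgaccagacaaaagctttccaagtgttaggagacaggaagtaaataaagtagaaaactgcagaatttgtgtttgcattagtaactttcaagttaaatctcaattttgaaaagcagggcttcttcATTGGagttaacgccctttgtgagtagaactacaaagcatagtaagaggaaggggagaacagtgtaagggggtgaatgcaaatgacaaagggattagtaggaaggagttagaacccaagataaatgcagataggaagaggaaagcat
LINC00235: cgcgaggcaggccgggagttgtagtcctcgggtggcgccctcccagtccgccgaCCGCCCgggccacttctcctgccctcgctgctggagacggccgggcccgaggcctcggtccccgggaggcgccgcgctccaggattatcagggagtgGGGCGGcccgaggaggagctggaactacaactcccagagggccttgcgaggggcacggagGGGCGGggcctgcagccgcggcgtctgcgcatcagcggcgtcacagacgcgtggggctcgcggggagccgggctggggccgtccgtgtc
LINC01278: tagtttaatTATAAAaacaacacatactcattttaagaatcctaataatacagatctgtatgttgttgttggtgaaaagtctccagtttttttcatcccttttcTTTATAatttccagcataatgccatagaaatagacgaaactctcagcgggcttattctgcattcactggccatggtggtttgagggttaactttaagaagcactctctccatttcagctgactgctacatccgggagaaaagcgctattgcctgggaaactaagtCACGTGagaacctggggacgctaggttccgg

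These windows differ widely in composition. GC content was 53.3% for LINC00324, 46.0% for LINC00242, 60.3% for LINC00863, 39.0% for LINC00641, 75.3% for LINC00235 and 40.3% for LINC01278. LINC00235, which starts 310 bases from CAPN15, held 36 CpG dinucleotides and 3 GC boxes, while LINC00641 held 2 CpGs and a single CCAAT box. LINC00242 held an AP-1 match and a CCAAT box, LINC00863 an E-box and a CCAAT box, and LINC01278 a pair of TATA box matches and an E-box. LINC02481 had no entry in the promoter table.

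Of the members, 96 had a RefSeq window and 62 had one whose start lay within 100 bases of the start in the gene table. Among those 62, the median GC content was 62.0% for the 19 higher members, 67.3% for the 15 lower ones and 65.7% for the 28 that did not pass, against 58.7% over all 35116 windows. The CCAAT box (CCAAT) was found in 9 of the higher, 6 of the lower and 12 of the other members, and in 34.6% of all windows. The GC box (GGGCGG) was found in 9, 8 and 17, against 45% of all windows. The E-box (CACGTG) was found in 4, 2 and 3, against 7.26% of all windows. The remaining motifs were rare: AP-1 (TGANTCA) in 2, 1 and 1 against 7.71%, the cyclic AMP response element (TGACGTCA) in 1, 1 and 1 against 1.85%, and the TATA box (TATAAA) in 1, 2 and 1 against 11.5%. The element bound by ATF4 and CHOP (TGATGNAA) was in 0, 0 and 1, against 3.62% of all windows. Both strands were searched for each, and these counts describe the letters of the windows only.

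Many LINC genes start head to head with another gene, that is on opposite strands with starts within 1 kb, and 30 members had such a neighbour that was tested, a protein-coding one in 20 cases. The neighbour and the member both changed in 8 pairs, 5 in the same direction and 3 in opposite directions. In 6 pairs only the member passed the test, in 5 only the neighbour, and in 11 neither did. Both changed in 26.7% of these pairs, against 24.6% of the 3264 tested genes with a head-to-head neighbour, and neither in 36.7% against 26.2%. Pairs changed in the same direction made up 16.7% against 14.7%, and those in opposite directions 10% against 9.9%. Only the member passed in 20% against 24.4%, and only the neighbour in 16.7% against 24.8%. The differences between these shares were not tested. LINC00652 and LINC00653 are each other's neighbour and count as 2 of the 30 pairs.

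In 3 of the 5 pairs that moved together, both genes spanned over 100 kb. LINC01184 (-1.57 ± 0.12) faces SLC12A2, 105.9 kb, which fell from 73.6 ± 2.99 to 53.7 ± 5.10 CPM (-0.46 ± 0.09, adjusted p = 0.00290, edgeR). LINC00476, 116.7 kb (-0.67 ± 0.15), faces the DNA repair gene ERCC6L2, 138.9 kb, at -0.96 ± 0.12, and overlaps it. LINC01572 (-1.28 ± 0.41) faces AC004943.2, 126.5 kb, at -1.53 ± 0.12. LINC01572 reached the count threshold through the DMSO libraries. Its longest transcript matched AC004158.1 at 100% identity over 1511 of 2194 bases, so its reads may be split. LINC00909, 6.74 kb, and ZNF407, a zinc finger gene of 467.8 kb, share a start region on chromosome 18 and overlap. LINC00909 fell by 0.49 on the log2 scale (SE 0.15), from 13.1 ± 0.44 to 9.31 ± 1.86 CPM, and ZNF407 by 3.79 (SE 0.14), from 16.8 ± 0.72 to 1.21 ± 0.13 CPM. On the rising side, LINC00337 (0.93 ± 0.30) faces ICMT, a carboxyl methyltransferase gene, at 0.49 ± 0.07.

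In the 3 pairs that went apart, the LINC gene was the shorter partner. LINC00863 rose (1.08 ± 0.14) while NUTM2A-AS1, 138.7 kb and starting 124 bases away, fell by 0.84 on the log2 scale (SE 0.23, adjusted p = 0.0175, edgeR). LINC02495, 37.6 kb, rose (0.62 ± 0.22, adjusted p = 0.0425) while JAKMIP1, 174.4 kb and 142 bases away, a gene for a microtubule-associated protein, went from 16.0 ± 1.11 to 4.98 ± 0.39 CPM (-1.68 ± 0.12). LINC01521 fell (-1.30 ± 0.15) while PATZ1, a transcription factor gene of 20.4 kb, rose from 58.9 ± 3.28 to 74.4 ± 4.95 CPM (0.34 ± 0.08, adjusted p = 0.00776). LINC00235 fell (-1.64 ± 0.23) beside CAPN15, which was at -0.16 ± 0.08 and did not pass (adjusted p = 0.118). LINC01006, 168.5 kb, overlaps its neighbour RNF32 and had 4, 13 and 7 counts with DMSO and 45, 17 and 10 with nitidine chloride, with overlap between the groups (1.51 ± 0.65, adjusted p = 0.0876). Its adjusted p was 0.0383 without the third nitidine chloride library and 0.316 without the first. RNF32, a RING finger gene, passed at 1.01 ± 0.17.

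**Figure D4:**
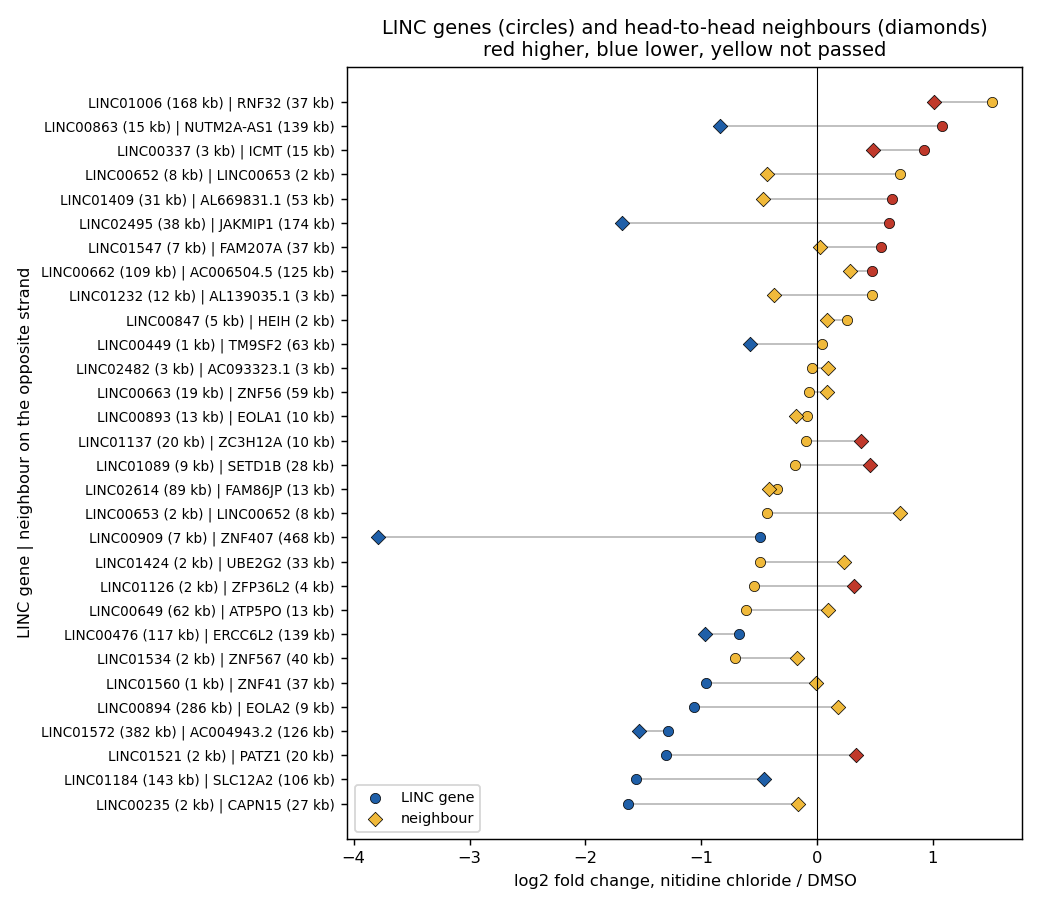
Log2 fold change of the 30 LINC members with a head-to-head neighbour and of that neighbour, as circles and diamonds joined by a line, coloured by call, with genomic spans in the row names. The largest gap between partners is that of LINC00909 at -0.49 and ZNF407 at -3.79.

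Compared with other classes of genes, short LINC genes stood between other long noncoding genes and protein-coding genes in how often they were higher. Under 20 kb, 23.9% of the 88 members were higher and 15.9% lower. Of 959 other long noncoding genes of that size, 14.8% were higher and 14.9% lower, and of 4634 protein-coding genes 46.4% and 5.74%. With mean counts below 100 the shares higher and lower were 22.4% and 13.4% over 67 members, 10.6% and 14.3% over 809 other long noncoding genes, and 31.2% and 5.20% over 923 protein-coding genes. At 100 kb or more, 56.2% of the 16 members were lower, as were 51.9% of 79 other long noncoding genes and 81.4% of 2674 protein-coding genes. With mean counts below 100, 50% of 12 members of that length were lower, as were 49.2% of 59 other long noncoding genes. Of 583 protein-coding genes with such counts and length, 60.9% were lower. The differences between these classes were not tested.

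Of the single-exon members 0 were higher by edgeR, and 1 at an unadjusted p under 0.05. DESeq2 and limma-voom also called 0 of them higher. Of the 18 single-exon members, 17 spanned under 5 kb, and of those 17, 0 were higher and 4 lower, with a median log2 fold change of -0.34. All 1442 single-exon genes under 5 kb had 14.1% higher and 16.4% lower. The 26 members under 5 kb with 2 or more exons held 6 higher and 5 lower, against 34.6% and 7.09% of all 1241 such genes. These are descriptions, with no test.

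Long noncoding RNAs known by other names, a list of 40 of which 32 were tested, held 8 higher and 10 lower ones, with a median log2 fold change of -0.02. These are 25% and 31.2% of those tested, near the 24.7% and 27% of all genes. NEAT1, the scaffold of paraspeckles, went from 134 ± 31.7 to 29.8 ± 6.47 CPM (-2.17 ± 0.22, adjusted p = 1.16e-04, edgeR), and LINC-PINT, 168.4 kb, was at -2.09 ± 0.32. At the other end, the snoRNA host gene SNHG12 was at 0.93 ± 0.11 and TUNAR at 0.85 ± 0.25. Genes for nuclear RNA decay and 3′ end processing supply the machinery that trims or removes many noncoding RNAs. Of 46 tested, 11 were higher (23.9%), 14 lower (30.4%) and 21 did not pass, with a median of -0.07, which again is near the shares of all genes. MTREX, the helicase that feeds RNA to the nuclear exosome and spans 117.8 kb, went from 182 ± 2.97 to 65.9 ± 5.76 CPM (-1.47 ± 0.08). XRN1, listed with them although its exonuclease acts mainly in the cytoplasm, was at -1.35 ± 0.11, and the nuclear exonuclease gene XRN2 at -0.46 ± 0.06. DCP2 and UPF1, on the same list, also serve cytoplasmic decay, so the list does not hold nuclear machinery alone. EXOSC2, an exosome subunit, and NCBP2, of the cap-binding complex, both rose by 0.81 on the log2 scale (SE 0.06 and 0.07).

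Overlaps and copies limit single values. Of the members, 47 overlap another counted gene, 33 of them on the opposite strand and 21 on their own, and strand use in counting is not given in the sources used here. Among the 88 without overlap, 37 changed. For 14 members another gene had a transcript at least 95% identical over at least 50% of the member's longest transcript. LINC00342 and LINC01572 are among them, and reads could be split or misplaced there.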

How the data were processed

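Messenger RNA libraries of HEK-293T cells, 3 per group, were compared by the groups and replicate numbers in the sample labels. The deposited table gave whole-number read counts per gene and FPKM (counts scaled by the authors to length and library total), per the file headers. HISAT2 2.0.4 and StringTie 1.3.0 are named, without roles, per the submitters' processing notes. For the counter, its strand setting and the genome build nothing was found (not given in the sources used here), but 116 of the 135 LINC positions equal those of GENCODE release 29 (GRCh38).

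Testing took genes whose mean reached 10 counts and used edgeR 4.0.16 (R 4.3.3), TMM scaling and the quasi-likelihood test of nitidine chloride against DMSO, with Benjamini-Hochberg adjustment over all 15953 of them and a threshold of 0.05. Members, lists and rules were chosen with earlier results of these data known. An SE is the log2 fold change divided by the root of the F statistic. The calls were checked on simulated data. Copies were found with blastn 2.17.0. Named members were the 8 highest in FPKM, the 8 highest and 8 lowest fold changes past the test with separated groups and a mean of at least 30 counts, the 3 longest not lowered, the 3 most lowered under 20 kb, listed micropeptide genes, the 4 largest changes beside a head-to-head neighbour, and up to 2 highest and 2 lowest of each other list. Genes named beyond this were chosen after their values were seen. Alternatives were DESeq2 1.42.0, limma-voom (limma 3.58.1), a replicate block, each library left out, other scaling, other count filters, an adjusted p of 0.01, a minimum change of 1.5-fold in the test, and members without overlap. A gene of the HEK-293T marker list is not reported here.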

Additional observations from a re-analysis of the deposited data

How the results depend on the processing

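The 56 changed LINC genes (28 higher, 28 lower) became 28 (15 and 13) with a mean count of at least 50, of which 27 were shared, 20 (4 and 16) in a test against a 1.5-fold change, and 33 (13 higher) at an adjusted p of 0.01. There were 37 among members without overlap of a counted gene. Leaving out 1 library gave 40 to 50 changed, 18 to 25 higher and 22 to 27 lower. The lowest of these, 40 and 18, came without DMSO replicate 3. DESeq2 called 43 and limma-voom 56, of which 43 and 55 were shared. Same-numbered libraries showed no sign of pairing, with correlations of their deviations of 0.00138, -0.055 and 0.0403. Such values cannot exclude that these libraries were handled together. A fit with the replicate block called 46 (20 higher and 26 lower), all among the 56. Scaling by library size alone moved the median of all genes from 0.01 to 0.12 and called 58 (33 and 25). It set the span-class medians at -0.076 (under 5 kb), 0.55 (5 to 10), 0.31 (10 to 20), 0.016 (50 to 100) and -0.57 (100 to 200). A mean count of at least 50 gave -0.27 under 5 kb, 0.088 at 5 to 10, 0.48 at 10 to 20 and -1.30 at 100 to 200 kb. Without overlapping members the medians were -0.34, 0.52, -0.067, -0.040, 0.27 and -1.06 in the 6 classes up to 200 kb. Leaving out 1 library gave ranges of -0.26 to -0.092 under 5 kb, 0.39 to 0.49 at 5 to 10, 0.15 to 0.36 at 10 to 20, 0.04 to 0.16 at 20 to 50, -0.24 to -0.027 at 50 to 100, -0.74 to -0.61 at 100 to 200 and -1.38 to -0.97 at 200 kb or more. The stricter filters and the left-out libraries by construction test fewer genes or samples; the cause of the other shifts was not tested. Low counts limit 61 members with a mean of 10 to 30.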

Other observations

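LINC genes below the threshold of 10 counts were examined in a fit with no filter on low counts. Of 498 such rows, 6 were higher and 21 lower by edgeR's quasi-likelihood test, or 5.42% in both directions together. Of all 12661 rows below the threshold, 144 were higher and 236 lower, or 3%. These sets were not matched for counts, and the difference between them was not tested. LINC01619, which spans 157.9 kb, had 16, 16 and 10 counts with DMSO and 2, 1 and 0 with nitidine chloride (adjusted p = 8.64e-04). LINC02506, 158.0 kb, had 4, 4 and 10 counts against 0 in each treated library (adjusted p = 0.00554). LINC00882, 403.8 kb, had 5, 5 and 8 against 0, 1 and 0 (adjusted p = 0.00700). Most of the 21 lower rows spanned less than 100 kb, among them LINC01431, 1.52 kb, and LINC01852, 3.48 kb. LINC01431 had 4, 14 and 10 counts with DMSO and 1 in each treated library (adjusted p = 0.00376). LINC01852 had 14, 6 and 9 against 1, 3 and 1 (adjusted p = 0.00962). Among the higher ones, LINC02772, 2.35 kb, had 3, 2 and 3 counts with DMSO and 14, 12 and 19 with nitidine chloride (adjusted p = 0.00176). LINC02137, 41.1 kb, was at 0 in all DMSO libraries and had 2, 4 and 4 counts in the treated ones (adjusted p = 0.0278). These genes were picked after their values were seen.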
